A study of Mus musculus with 32 samples.

Results

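The genes of prostaglandin E2 (PGE2) metabolism and signalling were followed in mouse epidermis with and without ultraviolet (UV) exposure. The set holds 10 genes, taken by symbol from the 55401 mouse Ensembl identifiers of the count files: the cyclooxygenases Ptgs1 and Ptgs2, the PGE2 synthases Ptges, Ptges2 and Ptges3, the PGE2 receptors Ptger1, Ptger2, Ptger3 and Ptger4, and the degrading enzyme Hpgd. All 10 were found and all 10 passed the filter on low counts, which 15546 genes passed in all. RNA was sequenced from the epidermis of 32 hairless mice (SKH-1/SV129/BL6/J), 1 library per mouse, aged 10 to 14 weeks. The mice were wild-type (WT) or Ppard knockout (KO, labelled -/-) littermates, Ppard being the gene of the lipid-activated nuclear receptor PPAR beta/delta. How the knockout allele was made is not given in the sources used here. The UV groups received a dose of 120 mJ/cm2 on the back and were killed 24 h later, and the Control groups were handled alike without UV. Each combination of genotype, treatment and sex held 4 mice (8 groups), so that 8 mice stood behind each genotype and treatment. The mice are separate animals, but all UV effects were measured at 1 dose and 1 time.

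PGE2 is made from arachidonic acid that phospholipases free from membranes. A cyclooxygenase turns it into prostaglandin H2, which a PGE2 synthase converts to PGE2. The EP1 to EP4 receptors on the cell surface read the signal, EP2 and EP4 through cyclic AMP and EP3 mostly against it, and 15-hydroxyprostaglandin dehydrogenase, the product of Hpgd, inactivates PGE2. In skin the pathway is known for the redness and swelling of sunburn, and cyclooxygenase-2 inhibitors are known to lower the number of UV-induced skin tumours in mice.

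The sequences before the start sites of 5 of these genes are shown first. Of the 10 genes, they include the one with the largest rise after UV (Ptgs2) and the one with the largest fall (Ptger3). Hpgd is included as the gene with the smallest edgeR P value between genotypes after UV, which did not pass after adjustment. The sequences come from RefSeq (build GRCm38.p6), whose promoter table held 9 of the 10 genes. Each run is the 250 bases before the start annotated in RefSeq, 5′ to 3′ on the strand of the gene, and capitals mark matches to the motifs named after it. These starts can differ from the ends of the gene ranges given below, which are from GENCODE M21. The run of Ptges lies inside its GENCODE range.
Ptgs2, chr1:150099781-150100030 (+ strand): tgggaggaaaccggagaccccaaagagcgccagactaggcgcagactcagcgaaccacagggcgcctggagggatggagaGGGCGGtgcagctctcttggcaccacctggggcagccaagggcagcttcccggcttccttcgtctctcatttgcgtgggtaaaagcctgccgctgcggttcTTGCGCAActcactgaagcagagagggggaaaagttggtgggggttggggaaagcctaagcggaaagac
Ptgs1, chr2:36230176-36230425 (+ strand): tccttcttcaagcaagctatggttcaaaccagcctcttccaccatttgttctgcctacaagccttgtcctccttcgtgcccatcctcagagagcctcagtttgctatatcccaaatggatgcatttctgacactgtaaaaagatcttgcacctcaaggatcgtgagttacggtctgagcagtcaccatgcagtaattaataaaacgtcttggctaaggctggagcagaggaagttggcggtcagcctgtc
Ptges, chr2:30903298-30903547 (- strand): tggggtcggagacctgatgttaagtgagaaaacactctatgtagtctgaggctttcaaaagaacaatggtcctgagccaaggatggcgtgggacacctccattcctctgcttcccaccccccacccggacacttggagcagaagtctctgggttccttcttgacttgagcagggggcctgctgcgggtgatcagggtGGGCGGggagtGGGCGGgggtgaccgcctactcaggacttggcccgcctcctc
Ptger3, chr3:157566626-157566875 (+ strand): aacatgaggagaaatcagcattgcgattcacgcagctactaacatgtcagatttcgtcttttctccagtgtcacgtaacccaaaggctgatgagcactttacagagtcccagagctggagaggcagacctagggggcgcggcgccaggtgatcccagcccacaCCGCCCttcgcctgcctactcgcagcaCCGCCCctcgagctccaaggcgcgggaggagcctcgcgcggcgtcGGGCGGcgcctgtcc
Hpgd, chr8:56294302-56294551 (+ strand): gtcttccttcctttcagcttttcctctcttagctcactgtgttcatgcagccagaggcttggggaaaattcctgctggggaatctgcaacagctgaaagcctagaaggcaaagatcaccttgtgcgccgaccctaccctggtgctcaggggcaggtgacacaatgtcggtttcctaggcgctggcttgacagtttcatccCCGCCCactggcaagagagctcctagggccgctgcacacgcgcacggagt
The motifs were searched on both strands in these bases and the 50 that follow the start: CRE (TGACGTCA), E-box (CACGTG), AP-1 (TGANTCA), C/EBP (TTNNGCAA), TATA box (TATAAA), GC box (GGGCGG), kappa-B by name, and the PPAR element DR1, which is AGGTCA repeated with 1 base between the copies. The Ptgs2 window held a GC box, a C/EBP match and, after the start, an E-box. C/EBP matches stood in 10.8% and E-boxes in 7.15% of the 32841 mouse promoter windows of the same length. The windows of Ptges and Ptger3 held only GC boxes, which 35.7% of windows hold, and the Ptgs1 window held none of the motifs. The Hpgd window held a GC box and, just after the RefSeq start, a TATA box, which 13.6% of windows hold. None of the 9 windows held a CRE (1.79% of windows), an AP-1 match (7.81%) or a DR1 (0.0396%), and a kappa-B match (8.46%) stood only in that of Ptges3. These matches describe letters and not binding.

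Between 22919428 and 40653581 reads per mouse fell on genes (median 27600228). The labels give an RNA quality number of 6.4 to 8.4, as 1 range for all mice, whereas the methods state a higher range. Values are read counts scaled to library size (cpm) after TMM scaling unless stated otherwise. Epidermis was present throughout, with the summed level of 5 suprabasal keratinocyte markers (Krt1, Krt10, Lor, Ivl and Flg) between 4603 and 97651 cpm. In 9 mice from all 4 genotype and treatment groups, 5 skeletal muscle markers summed to over 1000 cpm, and 1 KO female after UV (mouse 54F) had 1982 cpm of 6 dermal fibroblast markers, against at most 30.0 cpm in the other UV mice. Member results are therefore also given without these mice. The targeted gene was a weak check of the labels. Ppard averaged 95.5 ± 6.08 cpm in WT Control mice and 79.8 ± 6.87 cpm in KO Control mice (SD, n = 8 each), with overlapping ranges (log2 difference -0.26, adjusted P value 0.156). After UV the level was 282 ± 24.7 cpm in WT and 210 ± 25.7 cpm in KO mice, without overlap (log2 difference -0.42, adjusted P value 0.00114). Reads over the whole gene cannot show whether a deleted part was missing, so the genotypes below are those of the labels.

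Ptgs2 (chr1:150100031-150108227, build GRCm38) encodes cyclooxygenase-2, the inducible enzyme of the pair. In WT mice it was read at 0.767, 1.63 and 4.37 cpm (lowest, median and highest of 8) without UV and at 36.8, 55.3 and 93.3 cpm after UV. In KO mice the same values were 0.576, 1.94 and 3.72 cpm without UV and 33.2, 47.0 and 72.2 cpm after it. Every UV mouse was far above every Control mouse in both genotypes. The fitted rise was 31.3-fold in WT (log2 4.97 ± 0.34, SE; adjusted P value 3.59e-13) and 24.9-fold in KO mice (log2 4.64 ± 0.33; adjusted P value 1.25e-12). By the size of its change Ptgs2 stood within the top 1.63% of all tested genes in WT and the top 2.03% in KO mice.

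Ptgs1 (chr2:36230426-36252272) encodes cyclooxygenase-1, the form that most tissues make constantly. It went the other way. WT mice had 328, 476 and 532 cpm without UV and 211, 245 and 264 cpm after UV (lowest, median and highest of 8). KO mice had 352, 479 and 724 cpm without UV and 166, 218 and 256 cpm after it. No UV mouse reached the lowest Control mouse of its genotype. Ptgs1 fell by 0.87 on the log2 scale in WT (SE 0.09, adjusted P value 2.95e-09) and fell by 1.12 in KO mice (SE 0.09, adjusted P value 2.72e-11).

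Expressed per kilobase of exon, which allows levels of different genes to be compared, Ptgs1 remained the more abundant cyclooxygenase transcript after UV. The share of Ptgs2 in the 2 cyclooxygenase transcripts was 0.135%, 0.325% and 0.762% (lowest, median and highest of 8) in WT Control mice and 12.8%, 16.8% and 23.0% in WT UV mice. In KO mice it was 0.124%, 0.370% and 0.697% without UV and 13.5%, 15.9% and 22.5% after it. The sum of both transcripts was lower after UV: its median was 123 cpm per kilobase in WT Control and 76.3 in WT UV mice, and 124 against 68.8 in KO mice. The ranges of the sum overlapped in WT mice (84.6 to 137 without and 62.6 to 88.4 after UV) and not in KO mice (90.9 to 187 and 50.1 to 78.0), and neither sum was tested.

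Ptges (chr2:30889471-30929863, minus strand) encodes microsomal PGE2 synthase-1, the inducible synthase that is known to act with cyclooxygenase-2. Its levels were 144, 193 and 229 cpm in WT Control mice and 551, 598 and 674 cpm in WT UV mice. They were 149, 218 and 276 cpm in KO Control mice and 444, 548 and 589 cpm in KO UV mice. The UV and Control mice did not overlap in either genotype. The rise was 3.16-fold in WT (log2 1.66 ± 0.10, adjusted P value 1.88e-14) and 2.44-fold in KO mice (log2 1.29 ± 0.10, adjusted P value 3.05e-12).

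The other synthases moved less. Ptges3 (chr10:128058954-128077272) encodes cytosolic PGE2 synthase, also known as the Hsp90 co-chaperone p23. Its level went from 42.5 ± 3.44 to 69.6 ± 10.63 cpm in WT mice (1.64-fold, adjusted P value 6.38e-08) and from 41.0 ± 4.60 to 72.6 ± 8.64 cpm in KO mice (1.77-fold, adjusted P value 4.87e-09; SD, n = 8 each). Ptges2 (chr2:32395896-32405772) encodes microsomal PGE2 synthase-2. It rose 1.29-fold in WT (12.2 ± 1.69 to 15.8 ± 2.53 cpm, adjusted P value 0.000798) and 1.42-fold in KO mice (11.5 ± 1.25 to 16.3 ± 2.03 cpm, adjusted P value 1.82e-05). In WT mice the Ptges2 ranges overlapped, from 10.5 to 15.2 cpm without UV and from 11.8 to 19.6 cpm after it. Ptges was the most abundant synthase transcript per kilobase in all groups, with a median share of 69.6% without and 81.3% after UV in WT mice, and 72.3% and 78.4% in KO mice.

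**Figure D1:**
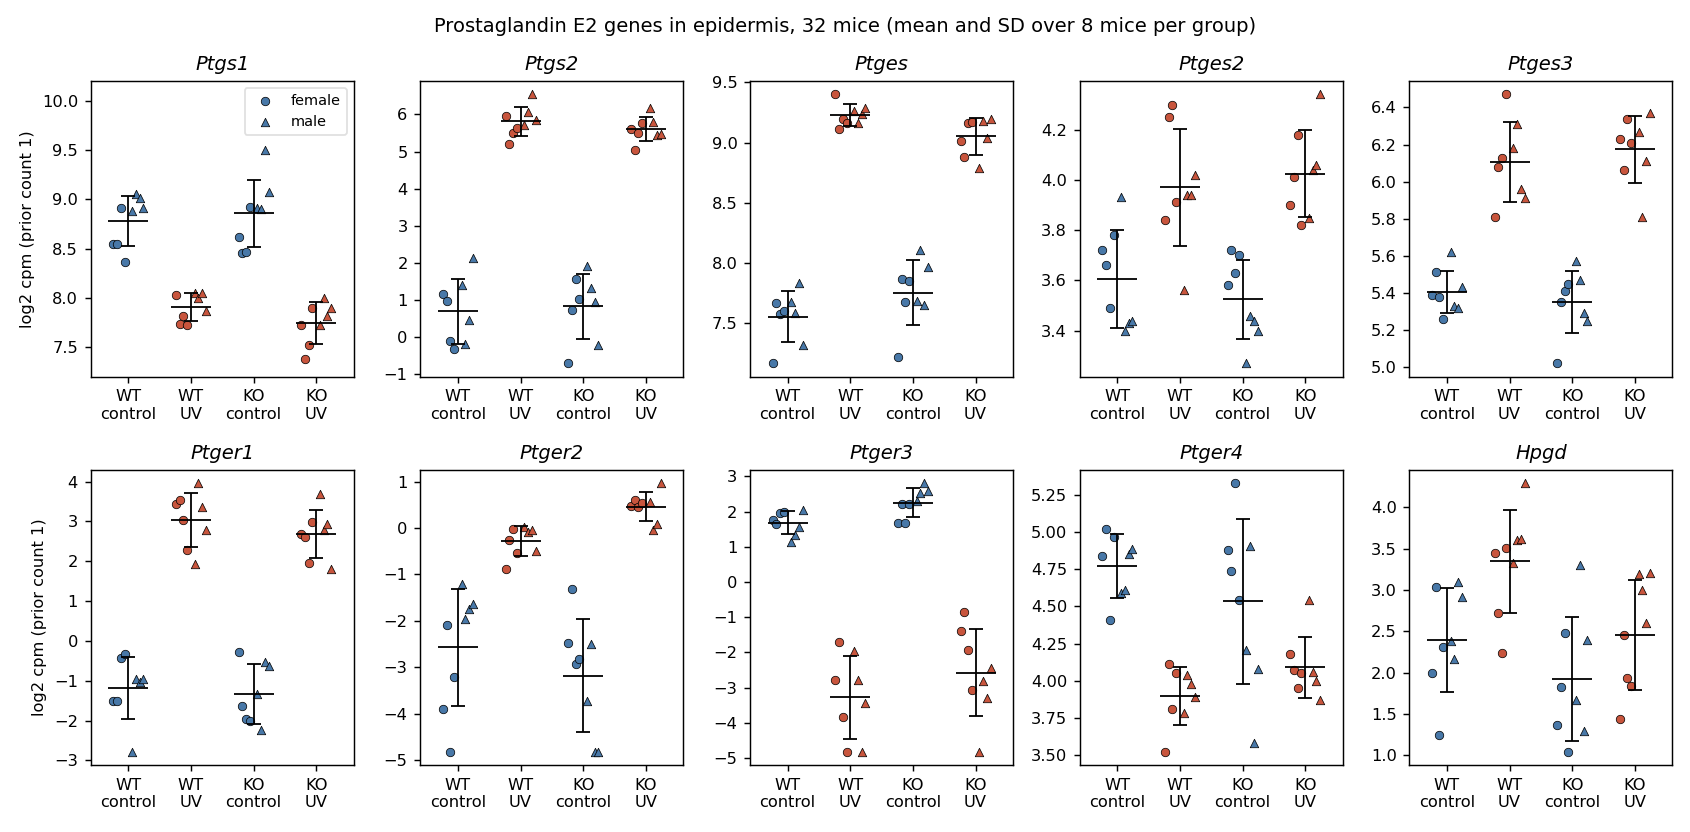
Level of each of the 10 genes in each of the 32 mice, as log2 cpm with a prior count of 1 (vertical axis; the scale differs between panels), for WT and KO mice without and with UV. Circles are females, triangles males, and bars give the mean and SD over 8 mice; Ptgs2, Ptges, Ptges3, Ptger1 and Ptger2 lie higher in all UV mice than in the Control mice of the same genotype, and Ptgs1 and Ptger3 lie lower.

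Among the receptors, UV went with opposite changes. Ptger1 (chr8:83666678-83672753) encodes EP1, which is known to act through calcium. It was close to undetected in Control mice, with 0.109, 0.464 and 0.767 cpm in WT and 0.177, 0.323 and 0.791 cpm in KO mice (3 to 23 reads per mouse). After UV it reached 3.74, 9.17 and 15.6 cpm in WT and 3.47, 6.65 and 12.9 cpm in KO mice. The groups were widely apart in both genotypes, by a fitted 19.8-fold in WT (log2 4.31 ± 0.38, adjusted P value 8.74e-11) and 16.3-fold in KO mice (log2 4.03 ± 0.38, adjusted P value 3.17e-10). Ptger1 passed the filter on low counts only through UV mice, which limits what its separation, folds and P values can show.

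Ptger3 (chr3:157566892-157645888) encodes EP3, the receptor that lowers cyclic AMP. It was read at 2.19, 3.21 and 4.14 cpm in WT Control mice and at 3.17, 4.79 and 6.99 cpm in KO Control mice. After UV it was almost lost, at 0, 0.0827 and 0.270 cpm in WT and 0, 0.128 and 0.522 cpm in KO mice. All 8 WT mice together gave 23 reads of Ptger3 after UV against 731 without, and the KO mice gave 45 against 1100. The fitted fall was 31.7-fold in WT (log2 -4.99 ± 0.47, adjusted P value 2.45e-10) and 29.6-fold in KO mice (log2 -4.89 ± 0.46, adjusted P value 2.43e-10). This places Ptger3 within the top 1.62% of changes in WT and the top 1.63% in KO mice. Ptger3 passed the filter on low counts only through Control mice, which limits what its rank and P values can show.

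Ptger2 (chr14:44988195-45003820) encodes EP2, a receptor that raises cyclic AMP. It stayed a rare transcript throughout. WT mice had 0, 0.210 and 0.401 cpm without UV and 0.509, 0.859 and 0.982 cpm after it. KO mice had 0, 0.101 and 0.367 cpm without UV and 0.938, 1.39 and 1.92 cpm after it. The UV mice again lay above all Control mice of their genotype. Ptger2 passed the filter on low counts only through UV mice, which limits what its separation, folds and P values can show. The rise was 5.28-fold in WT (log2 2.40 ± 0.43, adjusted P value 1.72e-05) and 14.6-fold in KO mice (log2 3.86 ± 0.46, adjusted P value 2.39e-08), from 41 and 24 reads over all Control mice. The larger fold in KO mice was found in males (2.95 in WT and 27.1 in KO) and not in females (9.44 and 7.81). With 1 mouse left out the log2 rise ran from 2.2 to 2.9 in WT mice. In KO mice it ran from 3.63 to 4.66, the latter without mouse 44M. Ptger2 shares 144 and 246 exon bases with the opposite-strand genes Gm49364 and Gm17173. The library kit keeps the strand, but whether counting used it is not stated in the sources used here.

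Ptger4 (chr15:5206661-5244187, minus strand) encodes EP4, which also raises cyclic AMP. Per kilobase it was the most abundant receptor transcript in all mice but 2 WT UV mice, 51F and 38M, in which Ptger1 stood above it (51.7% of receptor transcripts each, against 45.2% and 44.8%). WT mice had 21.2, 28.6 and 32.5 cpm without UV and 11.4, 15.3 and 17.3 cpm after it, without overlap. KO mice had 12.0, 24.9 and 40.3 cpm without UV and 14.5, 16.6 and 23.2 cpm after it, with the UV range inside the Control range. Ptger4 fell by 0.88 on the log2 scale in WT (SE 0.14, adjusted P value 4.63e-06) and fell by 0.49 in KO mice (SE 0.14, adjusted P value 0.00352). Ttc33, which shares 82 exon bases with Ptger4 on the opposite strand, also fell in both genotypes (log2 -0.78 in WT and -0.48 in KO mice, adjusted P values 8.31e-06 and 0.00221). A larger overlap of Ptger4, of 1015 exon bases, is with the opposite-strand pseudogene Gm15937.

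These shifts changed the makeup of the receptor transcripts. Per kilobase of exon, Ptger4 made up a median of 86.7% of the 4 receptor transcripts in WT Control mice and 54.7% in WT UV mice. Ptger1 went from a median of 1.65% to 40.8%, and its range after UV ran from 23.0% to 51.7%. Ptger3 went from 11.1% to 0.311%. In KO mice the medians without and after UV were 80.4% and 63% for Ptger4, 1.41% and 29.8% for Ptger1, and 18.4% and 0.643% for Ptger3. Ptger2 stayed a small part, with a highest share of 6.36% in WT UV and 11.5% in KO UV mice. The 4 transcripts summed to a median of 4.95 cpm per kilobase in WT Control and 3.80 in WT UV mice, with overlapping ranges. The shares rest on the annotated exon length, and without that division the Ptger1 median after UV was 36.5% of receptor reads in WT and 26.2% in KO mice.

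**Figure D2:**
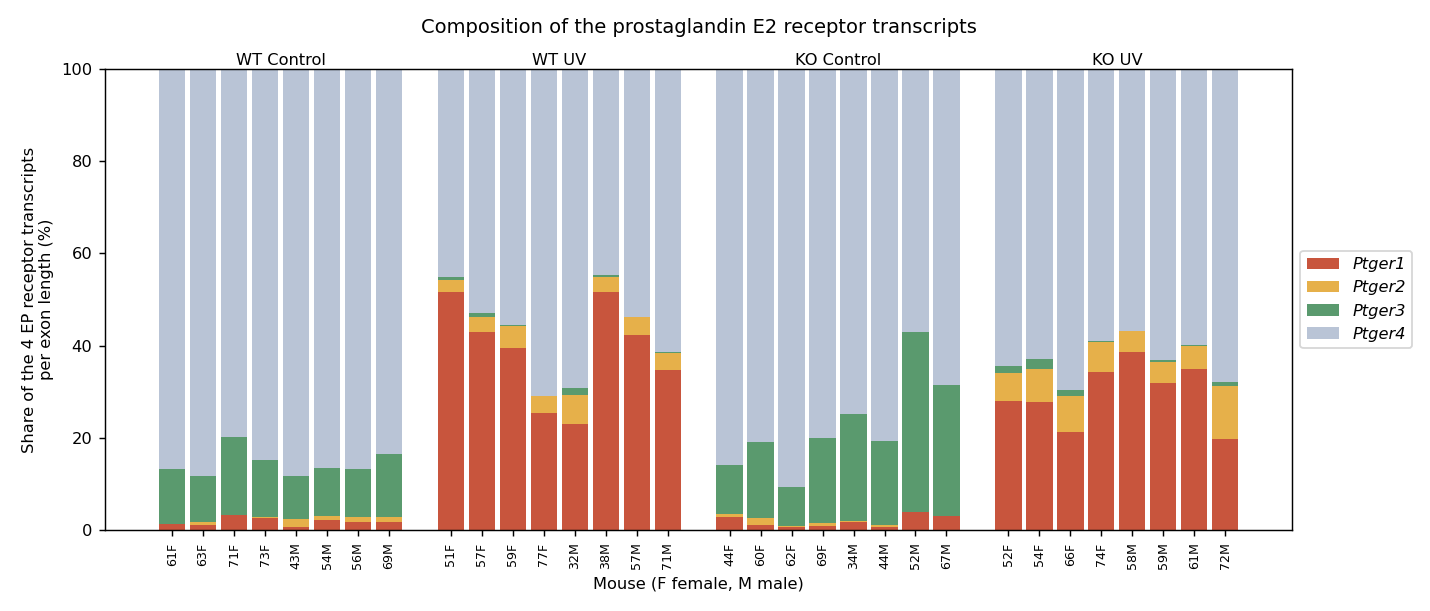
Share of each EP receptor gene in the 4 receptor transcripts, in % of cpm per kilobase of exon (vertical axis), with 1 bar per mouse (F female, M male) grouped by genotype and treatment. Ptger3 fills 8.34% to 39.0% of the bars of Control mice and at most 2.29% after UV, while Ptger1 fills at most 3.84% of the bars of Control mice and 19.7% to 51.7% after UV.

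Hpgd (chr8:56294585-56321043) encodes the dehydrogenase that inactivates PGE2. It was weakly expressed. WT mice had 2.33, 5.05 and 8.56 cpm without UV and 4.68, 11.1 and 19.5 cpm after it. KO mice had 2.02, 3.33 and 9.81 cpm without UV and 2.68, 5.75 and 9.15 cpm after it. The ranges overlapped in both genotypes. In WT mice Hpgd rose 1.90-fold (log2 0.93 ± 0.28, adjusted P value 0.00446), and in KO mice the difference did not pass the threshold (1.33-fold, log2 0.41 with a 95% interval of -0.16 to 0.99, adjusted P value 0.191). Mouse 44M, a KO Control male with 9.81 cpm, decided the latter: without it the log2 difference was 0.67 with an adjusted P value of 0.0282.

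In WT mice, then, all 10 genes passed an adjusted P value of 0.05 after UV, 7 higher and 3 lower. In KO mice 9 did, 6 higher and 3 lower, with Hpgd as the exception. These counts have to be read against the whole transcriptome, in which 71% of tested genes passed in WT and 70.8% in KO mice. With a fold change over 1.5 in addition, 9 members passed in WT mice against 48.0% of all genes, and 7 in KO mice against 47.6%. In each genotype 8 members showed no overlap between UV and Control mice, against 43.4% of all genes in WT and 35.1% in KO mice. Ptger1 and Ptger2 passed the filter on low counts only through UV mice and Ptger3 only through Control mice, so those 3 could hardly have failed to differ. Their inclusion limits what the counts can show. The counts of 10 and 9 members were the same without the 9 mice with muscle markers and without mouse 54F.

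Cell type markers moved with UV as well. All 5 suprabasal markers fell in both genotypes, their summed level ranging from 59802 to 69597 cpm in WT Control and from 7985 to 20394 cpm in WT UV mice, and from 54726 to 97651 and from 4603 to 24603 cpm in KO mice. Of 5 basal markers (Krt5, Krt14, Krt15, Itga6 and Col17a1) 2 rose and 2 fell in WT mice, and 3 rose and 1 fell in KO mice. Their sum went from between 7040 and 16040 to between 16626 and 28780 cpm in WT mice, and from between 5237 and 11722 to between 16224 and 28275 cpm in KO mice. All 5 Langerhans cell markers fell, from between 571 and 903 to between 318 and 384 cpm in WT mice and from between 552 and 873 to between 335 and 667 cpm in KO mice. Of 5 macrophage markers 2 rose and 1 fell in WT mice (43.1 to 102 cpm without and 107 to 188 cpm after UV), and 3 rose in KO mice (33.9 to 110 cpm and 110 to 1122 cpm, the highest being 54F). Of 6 T cell markers 5 fell in both genotypes (106 to 201 cpm without and 18.2 to 54.1 cpm after UV in WT mice, 93.8 to 171 and 29.8 to 77.5 cpm in KO mice). Of 6 mast cell markers 2 rose in WT mice (summed level 0.826 to 2.92 cpm without and 4.64 to 9.22 cpm after UV) and 3 in KO mice (0.480 to 3.56 and 5.59 to 28.9 cpm). Of 6 dermal fibroblast markers 3 fell in WT mice (12.6 to 71.9 and 1.73 to 8.44 cpm), and in KO mice, with 2.23 to 92.2 and 6.0 to 1982 cpm, 0 passed in edgeR, before adjustment as well as after it. In these 7 lists, markers without a read over a whole group numbered 0. The part of cell composition in the member results was not tested, and in such bulk samples fewer cells of a type and less RNA per cell cannot be told apart.

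Whether the knockout altered the pathway was asked by comparing KO with WT mice in each treatment. Without UV none of the 10 genes passed the threshold in edgeR, as against 0.206% of all tested genes (32 genes). Before adjustment, Ptges alone (1 of 10, against 8.52% of all genes) had a P value under 0.05 (log2 0.20, 95% interval 0.01 to 0.40, adjusted P value 0.563). DESeq2 and limma-trend called 0 members too. The interval of the log2 difference lay within -0.30 to 0.40 for Ptgs1, Ptges, Ptges2 and Ptges3, so these data leave little room for larger differences in those transcripts. For Ptgs2 (-0.54 to 0.78), Ptger1 (-0.90 to 0.68), Ptger2 (-1.71 to 0.33), Ptger3 (-0.18 to 1.32), Ptger4 (-0.49 to 0.10) and Hpgd (-0.99 to 0.17) the intervals were wider.

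After UV the genotypes again differed for none of the 10 genes by edgeR, as against 3.31% of all genes. Before adjustment 1 had a P value under 0.05, against 20.1% of all genes. That gene was Hpgd (log2 -0.92, KO minus WT, 95% interval -1.50 to -0.35, adjusted P value 0.0634), with 10.9 ± 4.40 cpm in WT and 5.97 ± 2.55 cpm in KO mice (SD, n = 8 each). DESeq2 placed Hpgd past the threshold (log2 -0.95, adjusted P value 0.0183), and limma-trend did not. In males the 4 WT mice (10.0, 12.1, 12.2 and 19.5 cpm) lay above the 4 KO mice (6.02, 7.97, 9.07 and 9.15 cpm), whereas in females the WT mice (4.68, 6.55, 10.9 and 11.3 cpm) and KO mice (2.68, 3.55, 3.80 and 5.48 cpm) overlapped. Ptger2 leaned the other way, with 1.37 ± 0.30 cpm in KO and 0.803 ± 0.17 cpm in WT mice (log2 0.77, 95% interval -0.01 to 1.55, adjusted P value 0.259). DESeq2 called Ptger2 as well (log2 0.75, adjusted P value 0.0415), so that DESeq2 called 2 members after UV and edgeR and limma-trend 0. Over all 15546 tested genes DESeq2 called 1116, edgeR 514 and limma-trend 260. Ptgs2 differed by -0.22 (95% interval -0.79 to 0.35) and Ptger1 by -0.39 (-1.05 to 0.28). All 6 dermal fibroblast markers were higher in KO than in WT mice after UV (6.0 to 1982 cpm against 1.73 to 8.44 cpm, no marker at 0), and without mouse 54F the log2 difference of Hpgd was -1.04 with an adjusted P value of 0.0690.

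The difference between the UV effects of the genotypes was tested directly as an interaction. None of the 10 genes passed it in edgeR, as against 0.765% of all genes. Before adjustment 2 of the 10 had a P value under 0.05, a share close to the 19.6% of all genes. These were Ptges (log2 -0.37, 95% interval -0.65 to -0.10, adjusted P value 0.133) and Ptger2 (log2 1.46, 95% interval 0.17 to 2.76, adjusted P value 0.197). The sexes differed in the order of the genotypes for Ptger2. Its log2 UV effect was 1.56 in WT and 4.76 in KO males, but 3.24 in WT and 2.97 in KO females. Control males gave 33 reads of Ptger2 in all in WT and 5 in KO mice. With 1 mouse left out the value of Ptger2 ran from 0.97 to 2.26, the latter without mouse 44M (adjusted P value 0.0703). DESeq2 called Ptges (log2 -0.41, adjusted P value 0.0497) and limma-trend called 0 members. Over all 15546 tested genes DESeq2 called 841, edgeR 119 and limma-trend 96. The interaction of Hpgd was -0.51 (95% interval -1.32 to 0.30, adjusted P value 0.496), so the UV effect on Hpgd that passed in WT and not in KO mice was not shown to differ between them. For Ptgs2 the interaction was -0.33 (95% interval -1.21 to 0.54), an interval that spans 0.

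**Figure D3:**
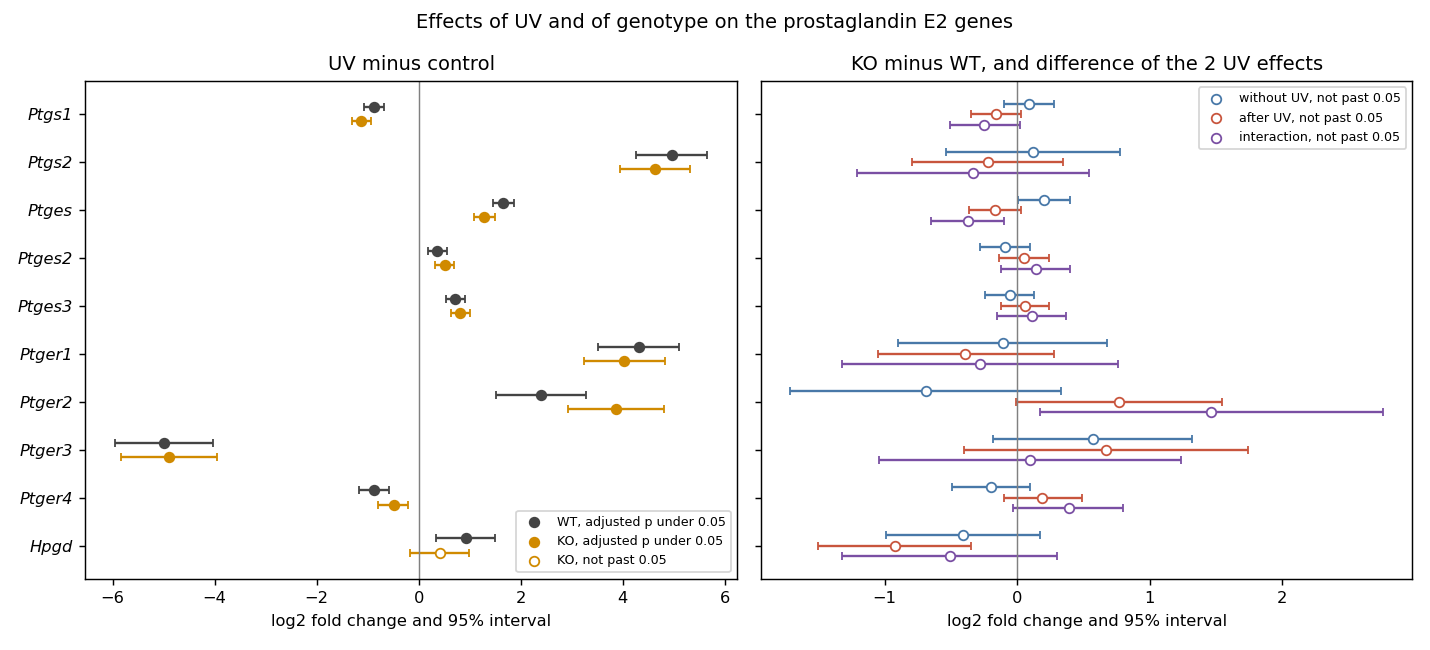
Log2 fold changes with 95% intervals (horizontal axes) for the 10 genes: UV minus Control in WT and KO mice on the left, and KO minus WT without UV, after UV and as the difference of the UV effects on the right. Filled points passed an adjusted P value of 0.05, which all points on the left but that of Hpgd in KO mice do and no point on the right does.

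Males and females were also compared in their UV response, over both genotypes. None of the 10 genes passed the sex-by-UV test in edgeR, where 0% of all tested genes passed, and 0 members had an unadjusted P value under 0.05 (over all genes 7.02% did). DESeq2 and limma-trend called 0 members. In each sex and genotype taken alone, Ptgs2, Ptges, Ptges3, Ptger1 and Ptger2 rose and Ptgs1 and Ptger3 fell. Ptges2 rose too, with its weakest calls in WT males (1.24-fold, adjusted P value 0.0392) and KO females (1.25-fold, adjusted P value 0.0328). Of 38 alternatives, the first of these calls held in 30 and the second in 22, with adjusted P values of up to 0.117 and 0.217. In WT females it was lost only without the 9 mice with muscle markers (adjusted P value 0.211). The fold of Ptgs2 was 33.4 in WT females, 29.3 in WT males, 25.2 in KO females and 24.5 in KO males. Ptger3 fell 34-fold in WT females, 29.6-fold in WT males, 12.8-fold in KO females and 68.7-fold in KO males, where the UV values rest on 11, 12, 36 and 9 reads in all. Without mouse 57F the log2 change in WT females was -6.09, without 32M that in WT males was -5.67, and without the 9 mice with muscle markers that in KO females was -4.58. Ptger4 fell in 3 of the 4 groups, by 1.92-fold, 1.76-fold and 1.79-fold in WT females, WT males and KO females. In KO males it did not pass (log2 -0.14, and 0.15 without mouse 44M; 95% interval -0.56 to 0.28, adjusted P value 0.568), where the Control males had 12.0, 16.9, 18.5 and 30.1 cpm and the UV males 14.5, 16, 16.7 and 23.2 cpm. Hpgd passed in WT males (2.09-fold, adjusted P value 0.0215), with adjusted P values of 0.0885 in WT females, 0.711 in KO females and 0.164 in KO males. Single mice decided these calls. The call in WT males was lost without 43M (adjusted P value 0.0569), 54M (0.0689) or 71M (0.0899), while WT females passed without 59F (0.0344) or 63F (0.0198) and KO males without 44M (0.0147).

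Levels by sex are given as a description. Ptgs1 had 476 to 724 cpm in KO Control males and 352 to 484 cpm in KO Control females, and 470 to 532 against 328 to 482 cpm in WT Control mice. Hpgd had 6.02 to 9.15 cpm in KO UV males and 2.68 to 5.48 cpm in KO UV females, without overlap. In WT UV mice its ranges were 10.0 to 19.5 cpm in males and 4.68 to 11.3 cpm in females. Ptger3 had 4.92 to 6.99 cpm in KO Control males, above the 3.17 to 4.65 cpm of KO Control females and the 2.19 to 4.14 cpm of WT Control males. These differences between sexes were not tested.

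The neighbouring steps of the pathway were taken from lists of 45 further genes, of which 40 were tested. The counts in these lists after UV have to be read against the 71% (WT) and 70.8% (KO) of all tested genes that passed. Whether a list held more called genes than that was not tested. Of 14 tested genes that free arachidonic acid or its precursors, 3 rose and 8 fell after UV in WT mice, and 5 rose and 7 fell in KO mice (median log2 change -0.56 and -0.63, against -0.014 and 0.088 over all genes). Pla2g4e, a member of the cytosolic phospholipase A2 family known as an N-acyltransferase, rose from 99.4 ± 20.5 to 1129 ± 112 cpm in WT mice (log2 3.50 ± 0.18, adjusted P value 1.29e-15) and from 117 ± 38.1 to 927 ± 113 cpm in KO mice (log2 2.98 ± 0.18). Pla2g4a, the classical cytosolic phospholipase A2 that supplies arachidonic acid to the cyclooxygenases, fell by 1.36 on the log2 scale in WT and by 1.90 in KO mice (68.4 ± 10.9 to 26.8 ± 5.89 cpm and 77.8 ± 11.9 to 20.8 ± 4.17 cpm). The secreted phospholipases Pla2g3 and Pla2g5 fell by 2.25 and 2.01 in WT mice, and Daglb, a diacylglycerol lipase, fell by 2.44. In KO mice Pla2g3 fell by 2.55, Pla2g5 by 1.90 and Daglb by 1.72.

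Pla2g4f, another cytosolic phospholipase A2, was the 1 gene of that list to pass between genotypes. It went from 512 ± 50.1 to 357 ± 31.0 cpm in WT and from 594 ± 65.8 to 285 ± 46.8 cpm in KO mice (SD, n = 8 each). It was lower in KO than in WT mice after UV (log2 -0.33, adjusted P value 0.0241), and its interaction was -0.54 (adjusted P value 0.0184). Without the 9 mice with muscle markers the values were -0.35 (adjusted P value 0.186) and -0.58 (adjusted P value 0.0726), and without mouse 54F the genotype difference was -0.31 (adjusted P value 0.0506).

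Of 9 genes for other prostanoid synthases, 4 rose and 1 fell in WT mice, and 5 rose and 1 fell in KO mice. The largest rises among those with a mean of at least 1 cpm were in reductases with known roles in making F-type prostaglandins or in reducing carbonyls. The thromboxane synthase gene Tbxas1, named after its values were seen, rose in KO mice from almost no reads (0.105 ± 0.179 to 2.06 ± 4.04 cpm, log2 4.00, adjusted P value 0.000487), with an SD after UV above its mean. Akr1b8 went from 10.3 ± 3.14 to 123 ± 20.5 cpm in WT (log2 3.58 ± 0.22) and from 9.78 ± 3.35 to 130 ± 25.6 cpm in KO mice (log2 3.72 ± 0.22). Akr1c18 rose by 1.97 in WT and 2.29 in KO mice on the log2 scale, and Cbr1, which can reduce PGE2 to prostaglandin F2alpha, by 1.48 and 1.49. Fam213b (Prxl2b), a prostaglandin F synthase, fell by 1.34 and 1.47.

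Of the 5 genes of prostaglandin transport and reduction, 1 rose and 3 fell in WT mice, and 2 rose and 3 fell in KO mice. Abcc4, an exporter of PGE2, fell from 72.7 ± 7.65 to 25.6 ± 2.74 cpm in WT and from 67.2 ± 12.0 to 23.6 ± 5.51 cpm in KO mice (log2 -1.50 and -1.51). Ptgr1, which reduces the product of Hpgd further, fell by 0.97 and 1.11. Ptgr2, a related reductase, rose by 0.30 and 0.35, and Zadh2, a further reductase of the family, fell by 0.19 and 0.25. The importer Slco2a1, which brings PGE2 to Hpgd inside the cell, rose in KO mice (25.1 ± 8.17 to 48.0 ± 12.6 cpm, log2 0.96, adjusted P value 8.22e-06), while in WT mice it went from 38.8 ± 16.1 to 47.0 ± 7.05 cpm (adjusted P value 0.105). The interaction of Slco2a1 was 0.67 with an adjusted P value of 0.123.

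Of the 5 receptors for other prostanoids only 2 were tested, and the others (Ptgdr2, Ptgfr and Tbxa2r) stayed under 1 cpm in every mouse. Neither passed in WT mice, and in KO mice the prostacyclin receptor gene Ptgir rose and the prostaglandin D2 receptor gene Ptgdr fell, both at means under 1 cpm and both named after their values were seen. In the lipoxygenase branch, which competes for arachidonic acid, 2 of 10 tested genes rose and 6 fell in WT mice, and 2 rose and 7 fell in KO mice. Alox12e, an epidermal 12-lipoxygenase, fell from 746 ± 469 to 5.96 ± 3.0 cpm in WT and from 753 ± 339 to 8.43 ± 7.95 cpm in KO mice (log2 -6.91 and -6.70). Alox5, the leukotriene-forming lipoxygenase of white blood cells, fell by 2.24 and 1.48. Ltc4s, the leukotriene C4 synthase, fell by 2.09 and 1.04, and Alox12, a platelet-type 12-lipoxygenase also made in epidermis, fell by 1.08 and 1.36. Alox8 fell by 1.09 in KO mice. Alox5ap, the activating protein of the Alox5 enzyme, was higher in KO than in WT mice after UV (9.35 ± 12.1 against 2.66 ± 1.08 cpm, log2 1.42, adjusted P value 0.0241), but without mouse 54F the log2 difference was 0.91 with an adjusted P value of 0.0862. Between genotypes without UV, 0 of the 40 genes passed in edgeR, and 7 had an unadjusted P value under 0.05, where 8.52% of all tested genes did.

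**Figure D4:**
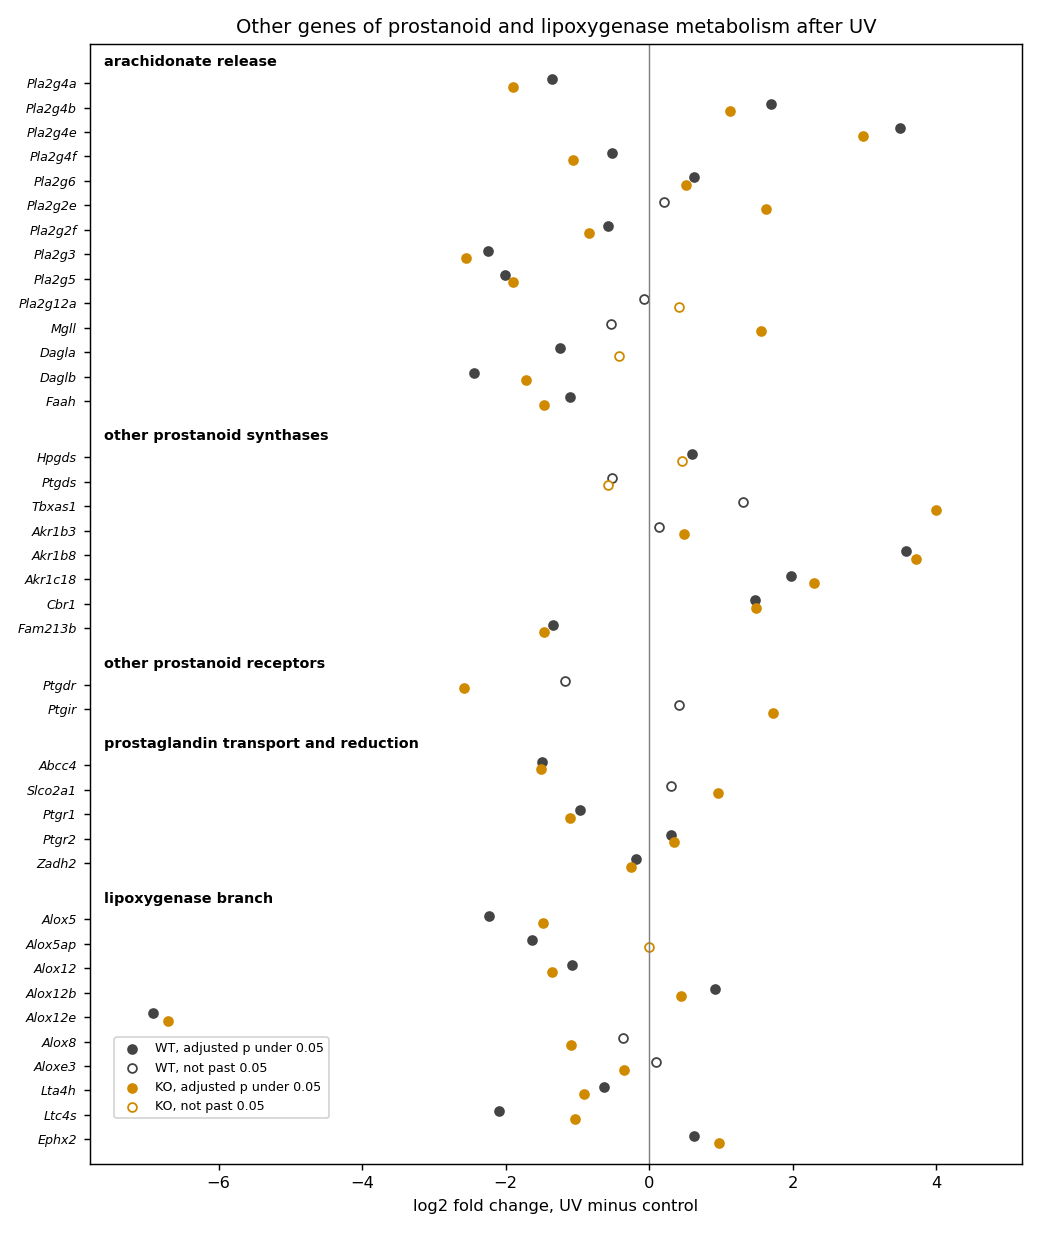
Log2 fold change after UV (horizontal axis) of the tested genes of the other pathway lists in WT and KO mice, leaving out Ptgis, which had almost no reads. Filled points passed an adjusted P value of 0.05; Pla2g4e and Akr1b8 stand at or above 2.98 in both genotypes, and Alox12e stands at -6.91 and -6.70.

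The genes whose levels followed those of 3 members most closely over the 32 mice were found by Pearson's r of log2 cpm, as a description. UV and Control mice enter r together, so a shared split by UV can raise it, and by how much was not measured. Ptgs2 was followed by Fosl1, Tinagl1 and Odc1 (r = 0.98 each). Odc1 had a mean of 11.6 cpm in WT Control and 511 cpm in WT UV mice, and Fosl1 had 5.29 and 189 cpm. Ptges was followed by Ppp4r1 and Gjb6 (r = 0.99 each) and Gjb2 (r = 0.98). Hpgd had no such close follower, and its nearest were Tcf23 (r = 0.74), Krit1 (r = 0.73) and Tom1l1 (r = 0.72). Tcf23 stood at 42.5, 92.0 and 103 cpm in WT UV mice (lowest, median and highest of 8), against 2.17, 6.05 and 9.78 cpm in KO UV mice, 1.11 to 5.59 cpm in WT Control mice and 0.540 to 3.0 cpm in KO Control mice.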

How the data were processed

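RNA of dorsal epidermis was prepared with a stranded mRNA kit and sequenced as single reads. Per the labels and the methods, reads were trimmed with Cutadapt, aligned with STAR and counted with HTSeq. The labels give the mouse build GRCm38, whereas the methods print the name of a human build. The gene identifiers in the counts are mouse. The authors deposited whole-number read counts per gene and mouse. Rows that name no gene were left out; reads without a feature made up 6.8% to 9.75% of uniquely aligned reads per mouse. Genes reaching 1 cpm in 1 or more mice were tested, scaled by TMM and fitted with edgeR 4.0.16 (quasi-likelihood, R 4.3.3) as 8 group means over all 32 mice, and P values were adjusted by Benjamini-Hochberg with a threshold of 0.05. Contrasts averaged the sexes. DESeq2 1.42.0, limma-trend 3.58.1, RLE scaling, other filters and leaving out each mouse were alternatives, and the script was tested on simulated data. cpm per kilobase used GENCODE M21 exon lengths. The members and lists were chosen with earlier results of these data known. Named genes were all members, Ppard, up to 4 called genes per list and comparison by absolute log2 change at a mean of at least 1 cpm, and the 3 genes most correlated over mice with each of Ptgs2, Ptges and Hpgd. Precision rests on 8 mice per genotype and treatment. Overlaps of members with other genes are reported only in part.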

Additional observations from a re-analysis of the deposited data

Results flagged for a closer look

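Of 80 sets of 4 mice (10 genes in 8 groups), 3 held a mouse far from the others, and chance gives about 1 in 20. Ptges2 was 15.2 cpm in the WT Control male 43M, against 10.5 to 10.8 cpm in the other WT Control males. Ptger1 was 0.791 cpm in the KO Control female 44F, against 0.213 to 0.286 cpm in the others. Ptger1 was 0.109 cpm, from 3 reads, in the WT Control male 43M, against 0.450 to 0.479 cpm in the others.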

How the results depend on the processing

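Each UV call of a member in WT mice, and the 9 in KO mice, kept its direction and its side of the threshold under all 40 alternatives, and the member counts without 1 mouse were 10 in WT and 9 to 10 in KO mice. Between genotypes after UV, DESeq2 called 2 members and leaving out 1 mouse 0 to 1, which was Hpgd without 44M (adjusted P value 0.0454), 52M (0.0422) or 59F (0.0484) in edgeR. For the interaction DESeq2 called 1. Without 1 mouse the log2 UV effect on Ptger4 in KO males ran from -0.30 to 0.15 (the latter without 44M), and that on Hpgd in KO females from -0.02 (without 54F) to 0.54, with -0.08 without the 9 mice with muscle markers, a setting chosen after seeing the data. Over all genes, the 32 called between genotypes without UV became 78 with DESeq2, 18 without the 9 mice and 20 to 45 without 1 mouse. The 514 after UV became 1116 with DESeq2, 260 with limma-trend, 263 without a filter, 26 without the 9 mice, 209 without 54F, and 133 (without 51F) to 983 (without 59M) without 1 mouse. The 119 interactions became 841 with DESeq2, 55 without a filter, 30 without the 9 mice and 56 to 346 without 1 mouse. The 0 sex-by-UV calls became 22 with DESeq2, 2 with limma-trend and 0 to 1 without 1 mouse. After UV, 418 genes were higher and 96 lower in KO mice, against 376 and 159 with RLE scaling, 361 and 259 with the filter filterByExpr, 724 and 392 with DESeq2, and 9 and 17 without the 9 mice. The cause of these changes was not tested. No paired analysis was possible because each mouse ID names 1 animal of 1 group, and the labels do not say that a number shared by a female and a male (44F and 44M) pairs them. Depth limits Ptger1 and Ptger2 without UV and Ptger3 after it.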
